A study of Mus musculus with 4 samples.

Results

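Mitochondrial ribosomal protein genes are the nuclear genes for the proteins of the ribosome inside mitochondria. They were taken as the protein-coding rows of the deposited count table whose symbol begins with Mrpl or Mrps and a number, which gave 78 of 54532 rows, 49 Mrpl genes (large subunit) and 29 Mrps genes (small subunit). Of these, 77 had enough counts to be tested, and the untested member was Mrpl53. The libraries are poly(A) RNA from primary mammary tumors of C57BL/6 mice, grown from PyMT cells injected into the mammary fat pad. The cells carry the MMTV-PyMT oncogene, in which the mouse mammary tumor virus promoter drives the polyoma middle T antigen, and all were sorted as positive for mCherry, the reporter of the Notch ligand Dll1. Tumors of the unirradiated group (n = 2) received no radiation, and those of the irradiated group (n = 2) received targeted radiation, which the study places at day 30. Before the mCherry sort, digested tumors had been stained for CD45, CD31 and TER119, markers of leukocytes, endothelium and red cells, so that tumor cells were enriched. The labels give no age for the mice, and nothing in them says that replicate libraries are from different animals. The spread between replicates, and every p-value that rests on it, may therefore be technical.

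The mitochondrial ribosome translates the mRNAs of the mitochondrial genome, which encode core subunits of the respiratory chain and the ATP synthase. Its ribosomal RNAs are transcribed inside the organelle, while every protein of both subunits is encoded in the nucleus, made in the cytosol and imported. Some members descend from bacterial ribosomal proteins, and others were added during the evolution of mitochondria. Epithelial tumor cells use this ribosome as other cells with mitochondria do, so its genes are broadly expressed and carry no cell type identity.

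The promoters of 5 members are shown because they belong to the genes with the lowest log2 differences in 1 irradiated library (Mrps33, Mrps18c and Mrpl36), to a gene below the unirradiated libraries in both irradiated ones (Mrpl51), and to the gene with the densest run of motifs (Mrpl32). Each runs from 250 bases before to 50 bases after the RefSeq start on build GRCm38.p6, 5′ to 3′ on the strand of the gene. Capitals mark exact matches, on either strand, to the cores of NRF1 (GCGCATGC), ETS factors such as GABPA (CCGGAAG) and YY1 (AAGATGGC). The Mrps33 promoter lies at chr6:39810887-39811186 on the minus strand, that of Mrps18c at chr5:100798509-100798808 on the plus strand, that of Mrpl36 at chr13:73330759-73331058 on the plus strand, that of Mrpl51 at chr6:125191950-125192249 on the plus strand and that of Mrpl32 at chr13:14612988-14613287 on the minus strand.
Mrps33: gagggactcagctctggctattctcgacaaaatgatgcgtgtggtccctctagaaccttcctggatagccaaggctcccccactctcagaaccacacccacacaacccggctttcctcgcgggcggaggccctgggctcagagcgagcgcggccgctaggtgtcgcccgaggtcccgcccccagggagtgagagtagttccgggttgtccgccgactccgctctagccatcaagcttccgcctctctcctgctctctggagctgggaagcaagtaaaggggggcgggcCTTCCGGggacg
Mrps18c: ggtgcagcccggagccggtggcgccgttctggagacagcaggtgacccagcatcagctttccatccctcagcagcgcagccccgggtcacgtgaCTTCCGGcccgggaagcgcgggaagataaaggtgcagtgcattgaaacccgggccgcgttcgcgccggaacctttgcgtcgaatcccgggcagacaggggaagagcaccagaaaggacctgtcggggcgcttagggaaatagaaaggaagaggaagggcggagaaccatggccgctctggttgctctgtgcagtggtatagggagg
Mrpl36: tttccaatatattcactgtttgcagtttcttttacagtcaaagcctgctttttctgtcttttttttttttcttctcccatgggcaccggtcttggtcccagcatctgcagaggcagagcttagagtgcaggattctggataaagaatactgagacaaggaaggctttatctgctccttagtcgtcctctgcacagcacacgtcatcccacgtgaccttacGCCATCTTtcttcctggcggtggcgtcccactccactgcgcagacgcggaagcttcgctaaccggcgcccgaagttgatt
Mrpl51: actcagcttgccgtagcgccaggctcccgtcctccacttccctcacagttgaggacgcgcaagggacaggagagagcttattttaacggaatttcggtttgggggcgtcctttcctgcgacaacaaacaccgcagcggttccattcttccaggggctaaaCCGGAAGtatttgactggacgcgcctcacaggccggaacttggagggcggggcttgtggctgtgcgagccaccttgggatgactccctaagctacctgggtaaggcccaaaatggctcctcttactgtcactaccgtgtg
Mrpl32: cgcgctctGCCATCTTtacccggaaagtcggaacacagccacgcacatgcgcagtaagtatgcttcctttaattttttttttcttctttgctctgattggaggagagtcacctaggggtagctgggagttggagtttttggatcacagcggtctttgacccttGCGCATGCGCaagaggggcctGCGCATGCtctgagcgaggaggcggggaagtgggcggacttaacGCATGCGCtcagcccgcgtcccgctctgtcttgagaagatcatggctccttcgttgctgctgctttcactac

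Counted from the start base as 0, the ETS core began at −156 in Mrps18c, at −90 in Mrpl51 and at 38 in Mrps33. The YY1 core began at −30 in Mrpl36 and at −242 in Mrpl32. Mrpl32 held 4 matches to the NRF1 core, of which the first pair overlap. NRF1, GABPA and YY1 are transcription factors known for binding the promoters of nuclear genes for mitochondrial proteins. In all, 75 promoters of 69 members were matched by symbol, and the table held none for Mrpl4, Mrpl13, Mrpl15, Mrpl19, Mrpl38, Mrpl54, Mrps28, Mrps34 and Mrps35. The ETS core was present in 34.7% of the 75 member promoters, against 8.86% of all 32851 promoters of the table and 16.1% of the 13654 promoters of tested protein-coding genes. The YY1 core was present in 16.0% of member promoters, against 2.75% and 4.07%, and the NRF1 core in 10.7%, against 2.71% and 4.82%. Any of these 3 cores stood in 50.7% of member promoters, against 13.3% of all and 22.9% of those of tested coding genes.

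Other motifs were about as frequent in member promoters as in those of tested coding genes. The GC box (GGGCGG, either strand) was in 52.0% of member promoters and 61.0% of the tested set, the E-box (CACGTG) in 9.33% and 9.46%, the CCAAT box (CCAAT, either strand) in 40.0% and 37.3%, and the TATA box (TATAAA, forward strand) in 5.33% and 4.53%. These matches are letters in a window, described without a test, and say nothing of binding in the tumor cells. Divergent arrangement was also frequent: 33 of 78 members (42.3%) had the start of a coding gene on the opposite strand within 1000 bases, with or without overlap, against 15.3% of 13699 tested protein-coding genes. Mrpl46 and Mrps11, a gene of each subunit, overlap at their 5′ ends, with starts 412 bases apart and 173 exon bases in common. The Mrpl36 promoter printed above lies within the deposited gene, which runs from 73328513 to 73332178 on chromosome 13. That of Mrpl51 also lies within its deposited gene, which runs from 125191801 to 125196269 on chromosome 6. Both so belong to a start downstream of the deposited one. The promoters of Mrps18c and Mrpl32 lie partly within their deposited genes and also belong to a downstream start. The members were spread over 17 chromosomes, with 11 on chromosome 11 and 8 on chromosome 17.

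Summed counts per library ranged from 16811888 to 20817997. The spread within groups was unequal, with a biological coefficient of variation of 5.93% for the unirradiated pair and 39.8% for the irradiated pair. Epithelial markers (10 genes, among them Epcam and Krt8) summed to between 9652 and 11896 CPM (read counts relative to the TMM-scaled size of the library), lowest in irradiated 2, where 9 of the 10 lay below both unirradiated libraries. Markers of other cells were higher in irradiated 2: the 10 macrophage genes summed to 32.3 and 29.0 CPM in unirradiated 1 and 2, 97.8 in irradiated 1 and 734 in irradiated 2. The 10 endothelial genes summed to 40.4, 37.6, 66.5 and 873 CPM, and the 10 fibroblast genes to 724, 742, 918 and 6233 CPM, in the same order. None of these macrophage, endothelial and fibroblast genes was at 0 in any library. Neutrophil, lymphocyte and red cell markers summed to at most 9.63, 21.1 and 5.85 CPM in the other libraries. In irradiated 2 they summed to 88.3, 113 and 35.1 CPM, and adipocyte and muscle markers to 83.6 and 11.4 CPM. Fabp4 made up 81.8 CPM of that adipocyte sum, and Adipoq, Plin1, Cidec and Lep were each at most 0.75 CPM there. The part of these cells in the values of the members was not tested, and in bulk RNA fewer cells of a type and less RNA per cell cannot be told apart.

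Levels between genes are compared here as CPM per kilobase of the deposited gene length, which is the union of a gene's exons. The tested members had a median of 10.8 CPM per kilobase, against 5.49 for all 13724 tested protein-coding genes. Mrps21, a small subunit protein with a bacterial counterpart, stood highest at 52.7 ± 5.9 (SD, n = 4 libraries), and Mrpl33, a large subunit protein, lowest at 2.36 ± 0.19 CPM per kilobase. Among small subunit genes Mrps6 (36.4 ± 6.4), Mrps12 (33.1 ± 5.1), Mrps7 (25.5 ± 3.2) and Mrps28 (24.7 ± 3.7) followed. Mrps21 and Mrps6 differ by more than the sum of their SDs, and the later neighbours in this order by less. Among large subunit genes Mrpl52 (35.1 ± 4.5), Mrpl34 (34.7 ± 7.7), Mrpl24 (32.8 ± 2.3), Mrpl54 (29.5 ± 2.6) and Mrpl28 (29.3 ± 4.2) were highest, each within the sum of SDs of its neighbour. The low end held Mrps10, Mrps25, Mrps22, Mrps30 and Mrps35 of the small subunit, at 3.29 to 2.37 CPM per kilobase, and Mrpl35, Mrpl15, Mrpl47, Mrpl1 and Mrpl33 of the large subunit, at 3.60 to 2.36.

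The order depends on which length is used, because the exon union of a gene can be much longer than its coding transcripts. Per kilobase of the median coding transcript of GENCODE M21, the members had a median of 19.2 CPM per kilobase, against 9.23 for tested protein-coding genes. Mrpl33 moved from 2.36 to 36.2 CPM per kilobase and Mrps10 from 3.29 to 25.0, while Mrps25 moved only from 3.00 to 3.24. On this scale Mrpl52 (88.4 ± 11), Mrps21 (87.3 ± 9.8) and Mrps6 (65.9 ± 12) were highest. Spearman's rho between the orders on these scales was 0.68 over the 77 genes, which share libraries and counts. For 73 of the 77 genes the SD over the 4 libraries was under 0.25 of the mean level. The plot of levels per length shows that the libraries of a gene usually lie closer together than genes do, with irradiated 1 often at the left.

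**Figure D1:**
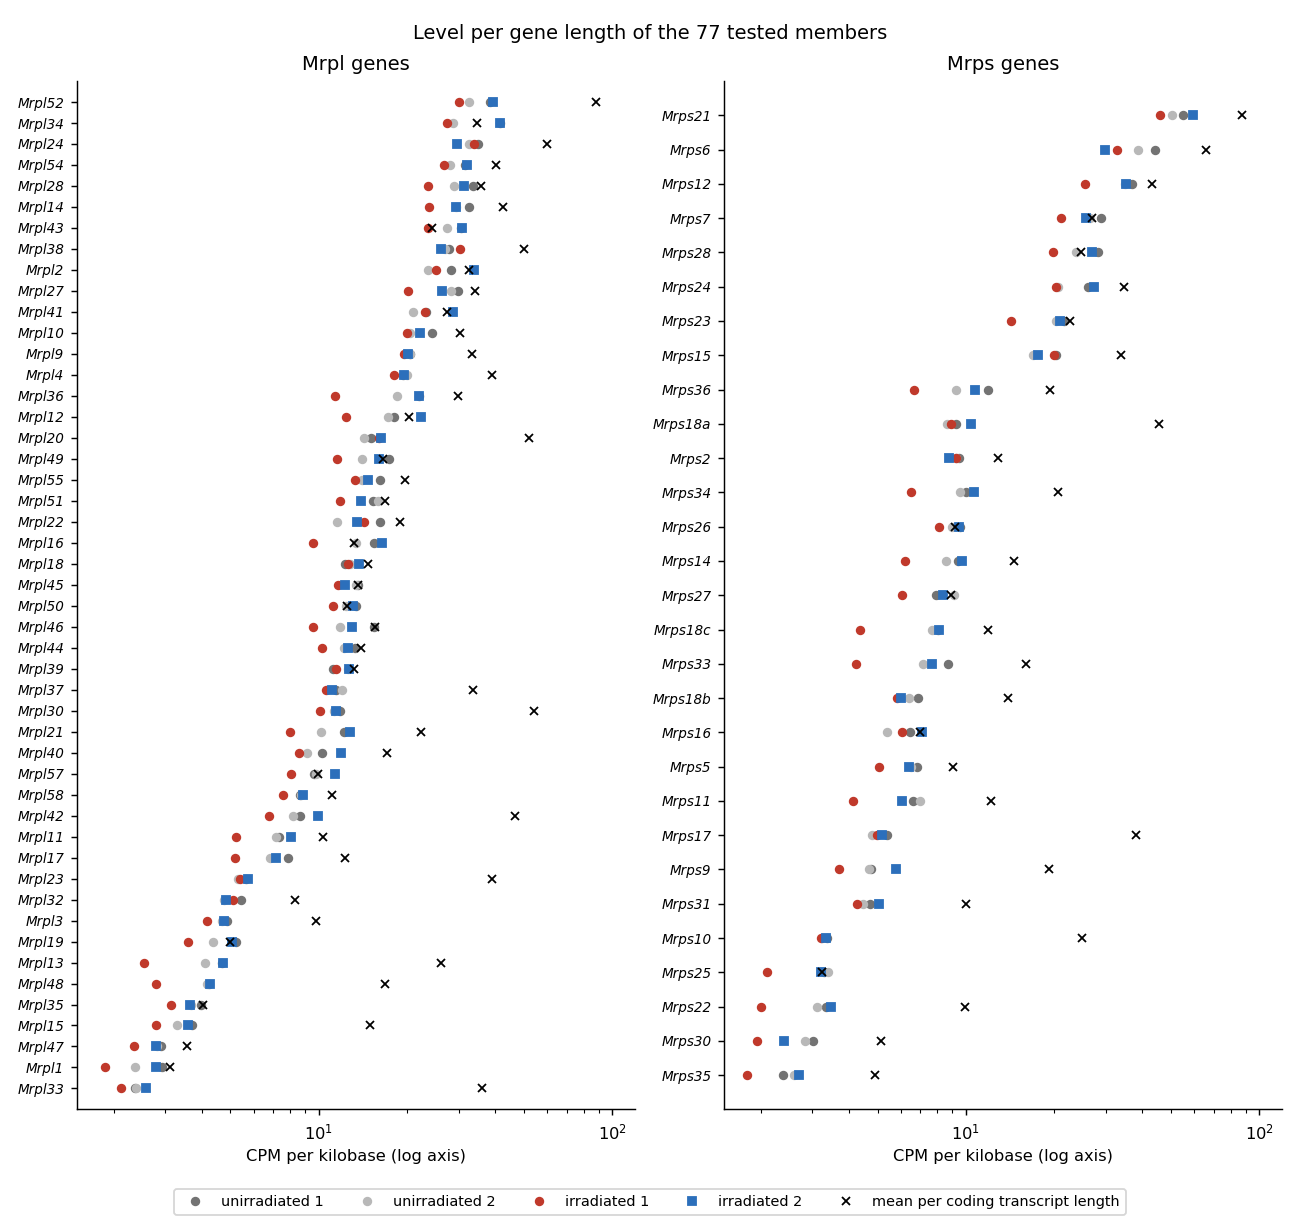
Level of each tested mitochondrial ribosomal protein gene as CPM per kilobase of deposited length (log axis), 1 point per library, ordered by mean, with a cross for the mean per kilobase of coding transcript. Mrps21 stands highest at 52.7 and Mrpl33 lowest at 2.36 on the deposited length, and the cross of Mrpl33 stands at 36.2.

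The question of the design is which genes differ between irradiated and unirradiated Dll1-positive tumor cells. By edgeR's quasi-likelihood test with Benjamini-Hochberg adjustment over the 15993 tested genes, 0 of the 77 members were higher and 0 lower, against 0% of all genes in either direction. DESeq2 also called 0 members in either direction (background 2.63% higher and 0.279% lower), as did limma-voom (background 0%). Without the filter on low counts edgeR called 0 members too (background 4.86% higher and 0.381% lower). At an unadjusted p under 0.05, 1 member was lower (Mrps6; background 2.44%) and 0 were higher (background 6.82%). In 16 members both irradiated libraries lay below both unirradiated ones (background 20.0%), a share near the background, and in 1 member, Mrpl20, both lay above (background 20.3%). The median log2 fold change was −0.11 over the members and 0.0040 over all genes.

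The irradiated libraries did not treat these genes alike. In irradiated 1, 68 of 77 members were below the unirradiated mean (background 50.4%), 63 were below both unirradiated libraries (background 42.7%) and 2 were above both (background 41.1%). In irradiated 2, 32 of 77 were below the unirradiated mean (background 49.4%), 18 were below both unirradiated libraries (background 39.4%) and 33 above both (background 40.3%). The median log2 difference from the unirradiated mean was −0.30 in irradiated 1 and 0.029 in irradiated 2, against −0.0025 and 0.0041 over all genes. The members summed to 2354 and 2178 CPM in unirradiated 1 and 2, 1891 in irradiated 1 and 2307 in irradiated 2. Between the unirradiated libraries the median log2 difference, library 2 minus library 1, was −0.10, and between the irradiated ones 0.34. In 65 of 77 members unirradiated 2 was below unirradiated 1 (8051 of 15993 over all genes). A one-sided count of members thus also arose within the unirradiated pair. The plot of differences by library shows the points of irradiated 1 to the left of the unirradiated range for most genes and those of irradiated 2 around it.

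**Figure D2:**
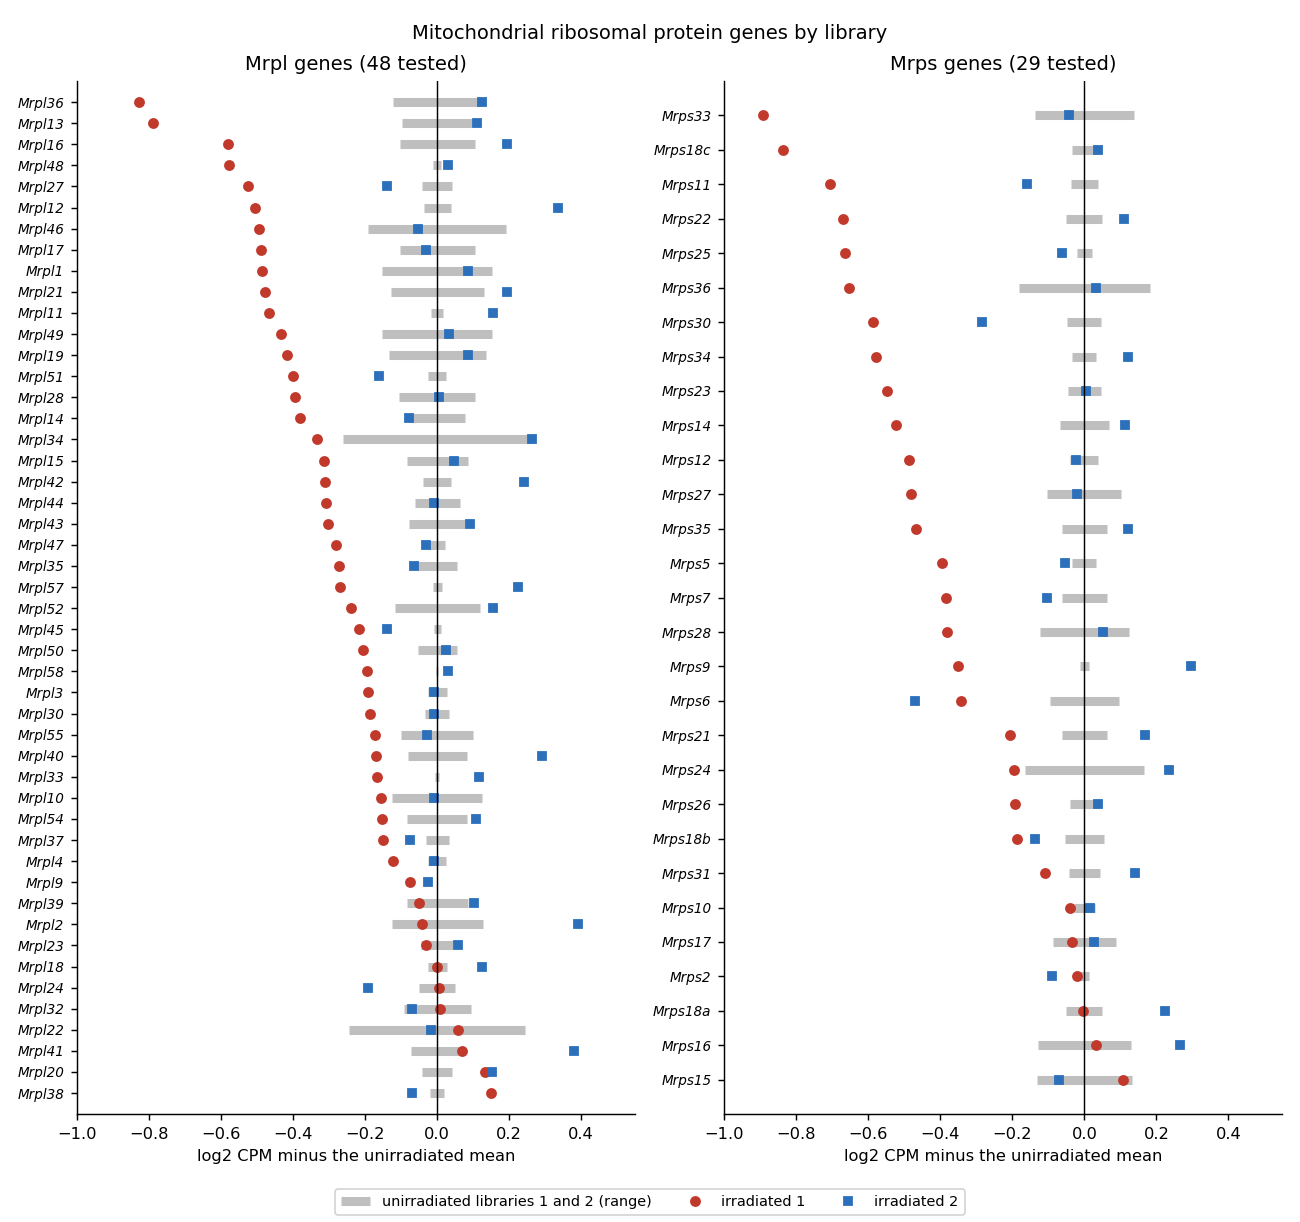
Log2 CPM of each tested member minus the mean of the unirradiated libraries, for irradiated 1 (circles) and irradiated 2 (squares), with grey bars spanning unirradiated 1 and 2. Irradiated 1 lies below the unirradiated mean in 68 of 77 genes and irradiated 2 in 32.

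Fits that leave out an irradiated library give these library differences a test, in which the remaining library is assumed to vary like the unirradiated pair. Such a test compares 1 library with the unirradiated pair, not the conditions. Without irradiated 2, 38 members were lower and 0 higher (background 13.9% lower and 11.9% higher). Without irradiated 1, 1 member, Mrps6, was lower and 3, Mrpl2, Mrpl12 and Mrpl41, were higher (background 7.95% and 15.9%). The fit without irradiated 2 placed 20 large subunit and 18 small subunit genes on the lower side.

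The genes with the lowest log2 differences in irradiated 1 came from both subunits. Mrps33, a small subunit protein with no bacterial counterpart, had 14.4 and 11.9 CPM in unirradiated 1 and 2, 7.01 in irradiated 1 and 12.7 in irradiated 2. Mrps18c, a homologue of bacterial S18, had 8.66, 8.26, 4.69 and 8.69 CPM in the same order. In both genes irradiated 1 alone was low, and irradiated 2 lay among or beside the unirradiated libraries. Mrpl36, the homologue of a small zinc-binding bacterial protein, had 25.5, 21.5, 13.2 and 25.5 CPM. Mrpl13, a homologue of bacterial L13, had 37.2, 32.5, 20.1 and 37.5 CPM. The log2 differences in irradiated 1 were −0.89 for Mrps33, −0.84 for Mrps18c, −0.83 for Mrpl36 and −0.79 for Mrpl13. These genes are named here as the lowest in irradiated 1, so the values do not test that library. With both irradiated libraries the log2 fold changes were −0.42 ± 0.34 (SE), −0.34 ± 0.36, −0.28 ± 0.34 and −0.28 ± 0.31. Their edgeR adjusted p lay between 0.792 and 0.869.

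Small subunit genes lay lower in irradiated 1 than large subunit genes, with median log2 differences of −0.39 over 29 genes and −0.25 over 48. The difference between the subunits was not tested. Mrps genes numbered above 21, which are mostly mitochondria-specific proteins, had a median of −0.55, and 13 of 13 were below both unirradiated libraries. Mrps genes up to 21 had a median of −0.27, with 12 of 16 below. Mrpl genes up to 36 had a median of −0.29 (21 of 28 below both) and those above 36 a median of −0.23 (17 of 20). The share below both over all genes was 42.7%. In irradiated 2 the medians of these 4 groups lay between −0.0044 and 0.052. The symbols do not match the subunits exactly: the products of Mrps30 and Mrps18a sit in the large subunit and that of Mrps36 belongs to the oxoglutarate dehydrogenase complex. Without these 3 genes the small subunit median in irradiated 1 was −0.38. The groups by number still hold them, Mrps30 and Mrps36 above 21 and Mrps18a below it. The summed CPM of Mrpl over Mrps genes was 1.88 and 1.89 in the unirradiated libraries, 1.99 in irradiated 1 and 1.93 in irradiated 2.

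Other members were also lowest in irradiated 1. Mrps22, a gene mutated in human mitochondrial disease, had 13.3 and 12.4 CPM in the unirradiated libraries, 8.02 in irradiated 1 and 13.9 in irradiated 2. Mrps25 had 21.7, 22.3, 13.8 and 21.1 CPM, with irradiated 2 also just below both unirradiated libraries, and 69.8% of its exon bases lie under Nr2c2 on the opposite strand, which had 17.2, 19.4, 25.1 and 19.6 CPM. The libraries do not keep strand, so reads of such overlaps cannot be assigned. Mrps11, which lies on the platform of the small subunit, had 14.3, 15.1, 8.98 and 13.2 CPM, with both irradiated libraries below both unirradiated ones. Its 5′ neighbour Mrpl46, of the large subunit, had 21.8, 16.7, 13.5 and 18.4 CPM, with irradiated 1 lowest and irradiated 2 between the unirradiated libraries. Mrps35 had a log2 fold change of −0.48 without irradiated 2, and Mrps12, whose protein lines the decoding centre, one of −0.50.

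Mrps6 had the smallest p of any member. It encodes a homologue of bacterial S6 and lies at chr16:92058270-92112227 on the plus strand. It had 67.8 and 59.4 CPM unirradiated against 50.1 and 45.8 irradiated, so the groups do not overlap. The log2 fold change was −0.41 ± 0.12 (SE), with an edgeR p of 0.020 and an adjusted p of 0.492. It was −0.36 without irradiated 2 and −0.49 without irradiated 1, in fits that share the same unirradiated pair. The gene overlaps Slc5a3, a myo-inositol transporter gene on the same strand at chr16:92058322-92087473, which had 117 and 139 CPM in the unirradiated libraries, 140 in irradiated 1 and 85.6 in irradiated 2. In GENCODE M21, Gm49711, a coding gene on the same strand, shares 305 exon bases with Mrps6. Overlaps cover 19.9% of the Mrps6 exon length, just under the 20% limit used below for exon overlap. How the authors' counting split reads between these genes is not given in the sources used here. The Mrps6 values are uncertain to that extent.

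In further members, too, both irradiated libraries lay below the unirradiated pair. Mrps30 had 20.2 and 18.9 CPM against 13.0 and 16.0, a log2 fold change of −0.43 ± 0.18 (adjusted p = 0.568). Mrpl51, a mitochondria-specific protein of the large subunit, had 62.1 and 64.3 CPM against 47.9 and 56.6, a log2 fold change of −0.28 ± 0.12 (adjusted p = 0.585). In both genes irradiated 1 was the lower of the irradiated libraries. Mrpl27, whose bacterial homologue reaches into the peptidyl transferase centre, had 29.4 and 27.8 CPM against 19.8 and 26.0. Mrps7, a homologue of a protein that starts assembly of the bacterial small subunit, had 59.8 and 54.8 CPM against 43.8 and 53.3. Mrpl45, which ties the ribosome to the inner membrane, had 35.4 and 34.9 CPM against 30.2 and 31.9, and Mrpl14 had 31.0 and 27.8 against 22.5 and 27.8, where irradiated 2 lay just under unirradiated 2. The log2 fold changes of these 4 genes lay between −0.32 and −0.18, with adjusted p between 0.657 and 0.759 by edgeR's quasi-likelihood test.

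Some members with a fold change above 0 had values in irradiated 1 among or above the unirradiated ones. Mrpl20, a homologue of an assembly protein of the bacterial large subunit, had 25.1 and 23.7 CPM unirradiated against 26.8 and 27.1 irradiated. Its log2 fold change was 0.14 ± 0.13 (edgeR adjusted p = 0.822). Mrpl41, a large subunit protein also known to bind Bcl-2, had 20.6, 18.6, 20.5 and 25.5 CPM. Mrpl2, which lies close to the peptidyl transferase centre, had 33.0, 27.7, 29.3 and 39.7 CPM. Irradiated 2 was the highest library for Mrpl41 and Mrpl2, with log2 fold changes of 0.36 and 0.37 without irradiated 1 (edgeR adjusted p = 0.038 and 0.012). Mrps16 had 18.6, 15.5, 17.4 and 20.4 CPM, Mrps18a had 34.1, 31.8, 32.8 and 38.5 CPM, and Mrpl18, which belongs to the part that binds the structural RNA of the central protuberance, had 17.2, 17.9, 17.6 and 19.1 CPM. Mrps24 (38.2, 30.3, 29.7 and 40.0 CPM) and Mrps31 (log2 fold change 0.02 ± 0.18) were also on the higher side of the fold changes, but irradiated 1 was the lowest library of each. Mrpl38 was the gene with the highest log2 difference in irradiated 1, 0.15, at 70.7, 68.9, 77.4 and 66.4 CPM, with irradiated 2 the lowest library. Mrpl9 and Mrps10 had the smallest SDs relative to the mean CPM, at 55.5, 55.5, 52.7 and 54.5 and at 27.2, 26.1, 25.9 and 26.9, with irradiated 1 lowest in both.

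Some members have roles beyond that of a structural ribosomal protein. Mrpl12 forms the stalk that receives translation factors and also binds the mitochondrial RNA polymerase. It had 27.7 and 26.3 CPM in the unirradiated libraries, 19.0 in irradiated 1 and 34.1 in irradiated 2, so the irradiated libraries lay on opposite sides. Its log2 fold change was −0.52 without irradiated 2 and 0.32 without irradiated 1. Mrpl58, a peptidyl-tRNA hydrolase that became part of the large subunit, had 28.8, 28.9, 25.2 and 29.4 CPM. Among the members with a structural role, Mrpl15, a homologue of bacterial L15, had 31.4, 27.9, 23.8 and 30.5 CPM. The log2 fold change of Mrpl15 was −0.13 ± 0.18 (edgeR adjusted p = 0.885). Mrps36, of the oxoglutarate dehydrogenase complex, had 15.2, 11.8, 8.47 and 13.7 CPM, lowest in irradiated 1.

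Across the 77 members the log2 difference in irradiated 1 had a Spearman's rho of 0.050 with that in irradiated 2, as a description over genes that share the libraries and the same unirradiated mean. The scatter of the libraries shows the members as a flat band to the left of 0 within the cloud of all genes.

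**Figure D3:**
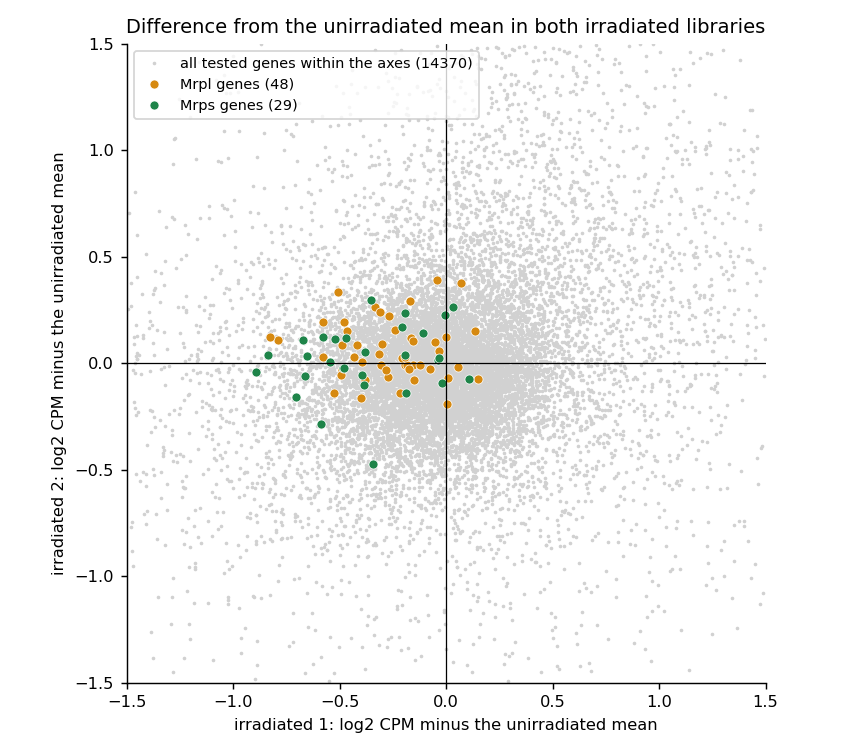
Log2 difference from the unirradiated mean in irradiated 1 (horizontal axis) and irradiated 2 (vertical axis), 1 point per tested gene that falls within the axes, with the mitochondrial ribosomal protein genes in colour by subunit. The members centre on −0.30 horizontally and on 0.029 vertically.

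Members are short genes, with a median coding transcript of 1226 bases against 2708 for tested protein-coding genes, so they were set beside genes of like length. In irradiated 1 the shortest members (up to 800 bases, 20 genes) had a median log2 difference of −0.22, and all tested genes of that length one of −0.21. From 800 to 1300 bases the medians were −0.19 over 21 members and −0.13 over all genes. From 1300 to 2500 bases they were −0.31 over 20 members and −0.044 over all genes, and above 2500 bases −0.34 over 16 members and 0.042 over all genes. The shortest members thus lay as low as other short genes, while longer members lay below genes of their length. The unirradiated libraries also differed by length: library 2 minus library 1 had a median of −0.14 over all genes up to 800 bases and 0.040 over those above 2500. The part of transcript length in the low values of irradiated 1 was not tested. Over all 13696 genes with a coding transcript, Spearman's rho between length and the difference in irradiated 1 was 0.17, and over the members −0.092.

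**Figure D4:**
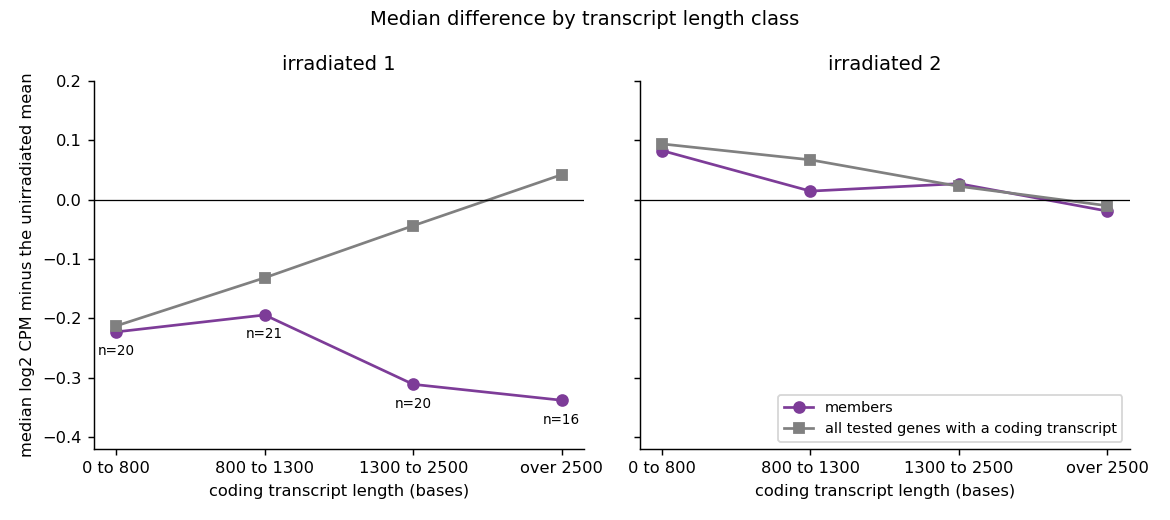
Median log2 difference from the unirradiated mean in irradiated 1 (left) and irradiated 2 (right) by class of coding transcript length, for members and for all tested genes with a coding transcript. In irradiated 1 the medians are −0.22 and −0.21 up to 800 bases and −0.34 and 0.042 above 2500 bases, where there are 16 members.

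Overlaps with other genes touch some members. Exon bases were shared with another gene in 33 members, in 10 of them over more than 20% of the exon length. Leaving out those 10 gave a median log2 difference of −0.27 in irradiated 1, with 55 of 68 genes below both unirradiated libraries (background 42.7%). Mrpl53 had counts of 0, 0, 1 and 0, and 88.0% of its exon bases lie within Gm42688 on the same strand, which had 1.68, 1.53, 2.47 and 1.55 CPM. The 5 pseudogene rows with member symbols had at most 17 counts in any library.

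Other genes of mitochondrial translation, with mitochondrial transcription and RNA factors and biogenesis regulators, were taken from 6 lists, 83 tested of 84 genes. By edgeR 0 were higher and 0 lower (background 0%), while DESeq2 called 1 higher (background 2.63%), and 9 lay above and 14 below in both irradiated libraries (background 20.3% and 20.0%). Ribosomal proteins with other symbols resembled the members, with a median over 5 genes of −0.28 in irradiated 1 and of −0.054 in irradiated 2. Dap3, a GTP-binding small subunit protein, had 74.2 and 71.8 CPM unirradiated against 53.1 and 68.1 irradiated, and Aurkaip1, another small subunit protein, had 55.4, 46.9, 42.0 and 49.2. Translation factors had medians of −0.27 and −0.018 over 13 genes. Mtif2, the initiation factor, had 49.7 and 52.1 CPM against 38.8 and 41.6 (log2 fold change −0.34 ± 0.11, adjusted p = 0.497), and Mtrf1l, a release factor, had 12.8 and 13.6 against 10.1 and 10.7. Both factors had irradiated libraries below the unirradiated ones.

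The remaining lists lay closer to 0 in irradiated 1. Assembly factors had a median of −0.097 over 22 genes, with Mterf4, which acts with the rRNA methyltransferase Nsun4, at 16.8 and 16.1 CPM against 11.2 and 12.6, and Mpv17l2 at 32.8 and 27.7 against 34.3 and 36.9. Mitochondrial aminoacyl-tRNA synthetases had a median of −0.025 over 17 genes. Lars2, the leucyl enzyme, had 621 and 559 CPM in the unirradiated pair against 1086 and 820 in the irradiated pair (log2 fold change 0.69 ± 0.19, edgeR adjusted p = 0.489), whereas Ears2, the glutamyl enzyme, had 21.8 and 22.9 against 16.7 and 17.5. These enzymes of the same list thus lay on opposite sides. Mitochondrial transcription and RNA factors, a list that also holds DNA replication genes such as Polg and Twnk, had a median of −0.0088 over 16 genes. Tefm, the transcription elongation factor, had 7.03 and 6.37 CPM against 3.58 and 5.92, and Pnpt1, an exoribonuclease, 51.6 and 51.7 against 46.0 and 44.4. Biogenesis regulators had a median of 0.099 over 10 genes, with Nrf1 at 24.8 and 24.8 CPM against 28.9 and 27.9 and Gabpb1, a partner of GABPA, at 38.6 and 38.6 against 35.6 and 34.7. The plot of groups sets these medians beside those of the members.

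**Figure D5:**
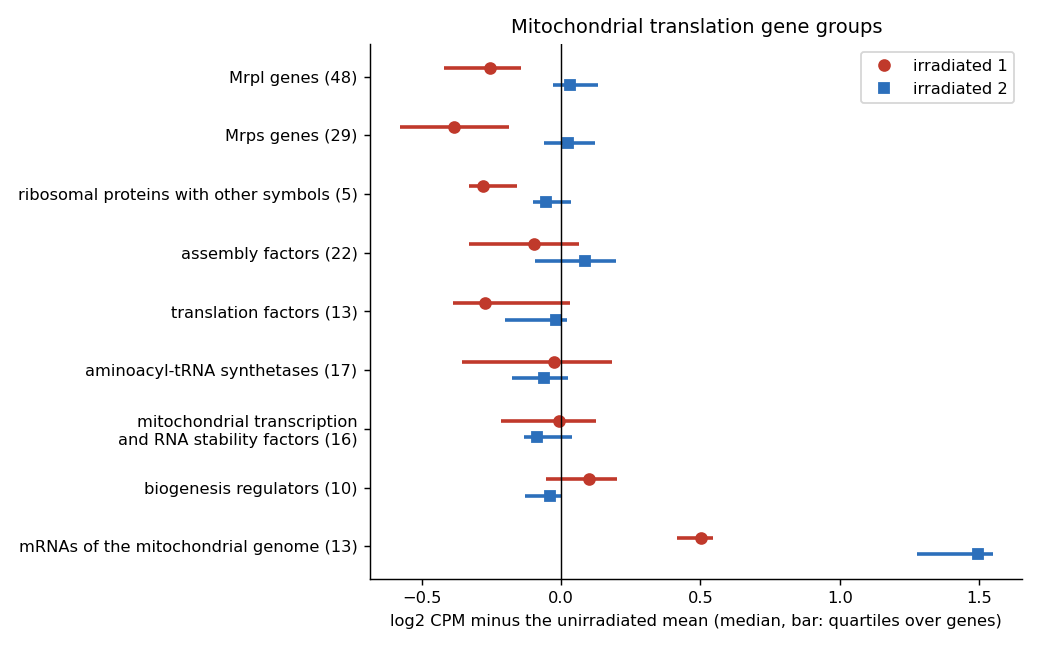
Median log2 difference from the unirradiated mean in irradiated 1 and irradiated 2, with bars for the quartiles over genes. Rows are the subunits, the lists of other genes and the mRNAs of the mitochondrial genome. The small subunit stands at −0.39 in irradiated 1 and the mitochondrial mRNAs at 0.50 and 1.49.

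The mRNAs of the mitochondrial genome, which this ribosome translates, lay on the other side from most members in irradiated 1 only. For 13 of 13, both irradiated values exceeded the unirradiated pair (background 20.3%), with median log2 differences of 0.50 in irradiated 1 and 1.49 in irradiated 2. They summed to 12435 and 11872 CPM in the unirradiated libraries, 17152 in irradiated 1 and 31442 in irradiated 2. None passed edgeR's adjusted threshold, 7 were higher by DESeq2 (background 2.63%), and the smallest adjusted p by edgeR was 0.489. In irradiated 2, where markers of macrophages, endothelium and fibroblasts were also highest, the members were near the unirradiated level while these mRNAs were at their highest, and the part of those cells was not tested.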

How the data were processed

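Raw read counts per gene were deposited by the authors for 2 unirradiated and 2 irradiated libraries. The submitters' processing notes name the mm10 build, HTSeq 0.6.1, STAR 2.5 and DESeq2. The annotation release and the settings of HTSeq were not given in the sources used here. Per the labels' protocols, the poly(A) library kit does not keep strand. The table that holds all 4 libraries matched the single tables at all 54532 genes. All 78 members were found in GENCODE M21 (GRCm38), 73 with the same coordinates.

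Groups and replicate numbers come from the labels. Counts were tested with edgeR 4.0.16 in R 4.3.3 (filterByExpr with minimum count 10 and minimum total 15, TMM, quasi-likelihood test, two-sided, Benjamini-Hochberg over 15993 genes, threshold 0.05). CPM are TMM-scaled, with a prior count of 2 before taking log2. Library totals of 16811888 to 20817997 gave each tested member 93 to 1638 counts in a library. Alternatives were other scalings, no filter, a stricter filter, the replicate block, each library left out, limma-voom (limma 3.58.1) and DESeq2 1.42.0, and, chosen after seeing the data, coding transcript length and members with little exon overlap. The steps were tested on simulated data, in 3 simulations with 200 changed genes each. On average 24.0% of 2-fold and 61.3% of 4-fold changes were recovered, and 14 unchanged genes were called. Whether these rates hold for the deposited libraries, with biological coefficients of variation of 5.93% (unirradiated pair) and 39.8% (irradiated pair), was not tested.

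The members, lists, motifs and tests were chosen with earlier results of these data known. Genes were named by a rule: Mrpl15; per subunit the 5 highest and 5 lowest levels per kilobase and the 4 smallest p on each side; the 3 largest differences between irradiated libraries; Mrpl12, Mrpl41, Mrps30 and Mrpl58; and the 2 smallest p per list. Mrps33, Mrps36, Mrpl9, Mrpl38, Mrpl46 and Mrpl53 and the printed promoters were chosen after their values were seen. Length classes were likewise set after the data were seen, and the class above 2500 bases holds 16 members.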

Additional observations from a re-analysis of the deposited data

How the results depend on the processing

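The members called by edgeR stayed at 0 in both directions under every scaling and filter, the replicate block, limma-voom and DESeq2. With each library left out in turn, members called higher ranged from 0 to 3 and lower from 0 to 38, the latter without irradiated 2. The median log2 fold change of the members was −0.11, between −0.12 and −0.10 under the other settings, −0.097 without the members with over 20% exon overlap, and between −0.32 and 0.0070 with a library left out. Over all genes, calls higher were 1338 with no filter, 444 by DESeq2, 2 with the replicate block and 0 to 2713 with a library left out; calls lower were 105 with no filter, 47 by DESeq2 and 0 to 2355 with a library left out. Among the 83 tested genes of the 6 other lists, DESeq2 called 1 higher (background 2.63%) and 0 lower (background 0.279%). Their median log2 difference from the unirradiated mean was −0.059 in irradiated 1 and −0.046 in irradiated 2.

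Of the 38 members named by rule, none changed sign under the scalings, filters, block, limma-voom or DESeq2. Leaving out a library changed the sign of 2 to 15 of them: Mrpl12 had a log2 fold change of 0.32 without irradiated 1 and −0.52 without irradiated 2. The median level per kilobase was 10.8 and became 19.2 with coding transcript length. Replicate numbers are shared between the groups, but same-numbered libraries did not deviate together (correlation −0.099 over 15993 genes), and the block gave a median of −0.11. Each group held 2 libraries, and the irradiated pair differed more than the unirradiated pair. The part of this spread in the lack of calls was not tested. Nor was the part of low counts, down to 93 for a member in a library.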
